A study of Mus musculus with 6 samples.

Results

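The Notch receptors were described by the 9 probe sets whose platform annotation names Notch1, Notch2, Notch3 or Notch4, out of 45101 probe sets on the array, that is, by 4 of 18194 annotated genes. Notch1 lies on chromosome 2, Notch2 on chromosome 3, and Notch3 and Notch4 on chromosome 17. These 4 genes had 2, 2, 2 and 3 probe sets in that order, and each probe set, a group of short probes aimed at 1 target sequence, was followed on its own. RNA came from mouse hair bulbs at postnatal day 9, during growth of the first coat, and was hybridised to 6 one-colour oligonucleotide arrays. The emN1 bulbs (2 arrays) came from areas of skin whose Notch1 was deleted in the embryo and are labelled as lacking functional Notch1. The anN1 bulbs (2 arrays) came from areas deleted during anagen, the growth phase, and are labelled as having functional Notch1. Wild-type bulbs made up 2 further arrays, and the design text names anN1 and wild-type together as controls (4 arrays). The first array set held replicate 1 of emN1 and of anN1, and the second held the other 4 arrays. The labels name neither the recombinase driver, nor the deleted part of the gene, nor the strain, and do not say whether a replicate was 1 animal or a pool. The replicates are called biological without further detail, and a p-value here reflects only how far these arrays spread, part of which may be technical.

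Notch receptors are single-pass membrane proteins that are bound by Delta and Jagged ligands on neighbouring cells. Binding leads to cleavage by ADAM proteases and then by gamma-secretase, and the freed intracellular domain enters the nucleus, where it joins the DNA-binding protein RBPJ and Mastermind to switch on target genes. In the growing follicle Notch1 is known from the matrix and the inner layers of the bulb, where Notch2 and Notch3 are also found. Notch3 is best known from pericytes and vascular smooth muscle, and Notch4 from endothelium.

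Of the 9 probe sets, 5 were in the upper 60% of mean log2 signal and entered the tests, namely both for Notch1, 1 for Notch2 and both for Notch3. The other 4, 1 for Notch2 and all 3 for Notch4, were dim. Signals are the authors' linear intensities. A background limit of 112 was set at the 95th percentile of control probe sets for bacterial genes, chosen by name and taken as undetected. All 5 tested probe sets were over it on all 6 arrays. The filter corresponds to a signal of about 129.9. Nearest above it among the receptors was Notch3 1421964_at, with signals of 198.8 to 718, and nearest below it was Notch4 1449146_at, with signals of 52.4 to 157. None of the 4 dim probe sets was over the background limit on more than 3 arrays.

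**Figure D1:**
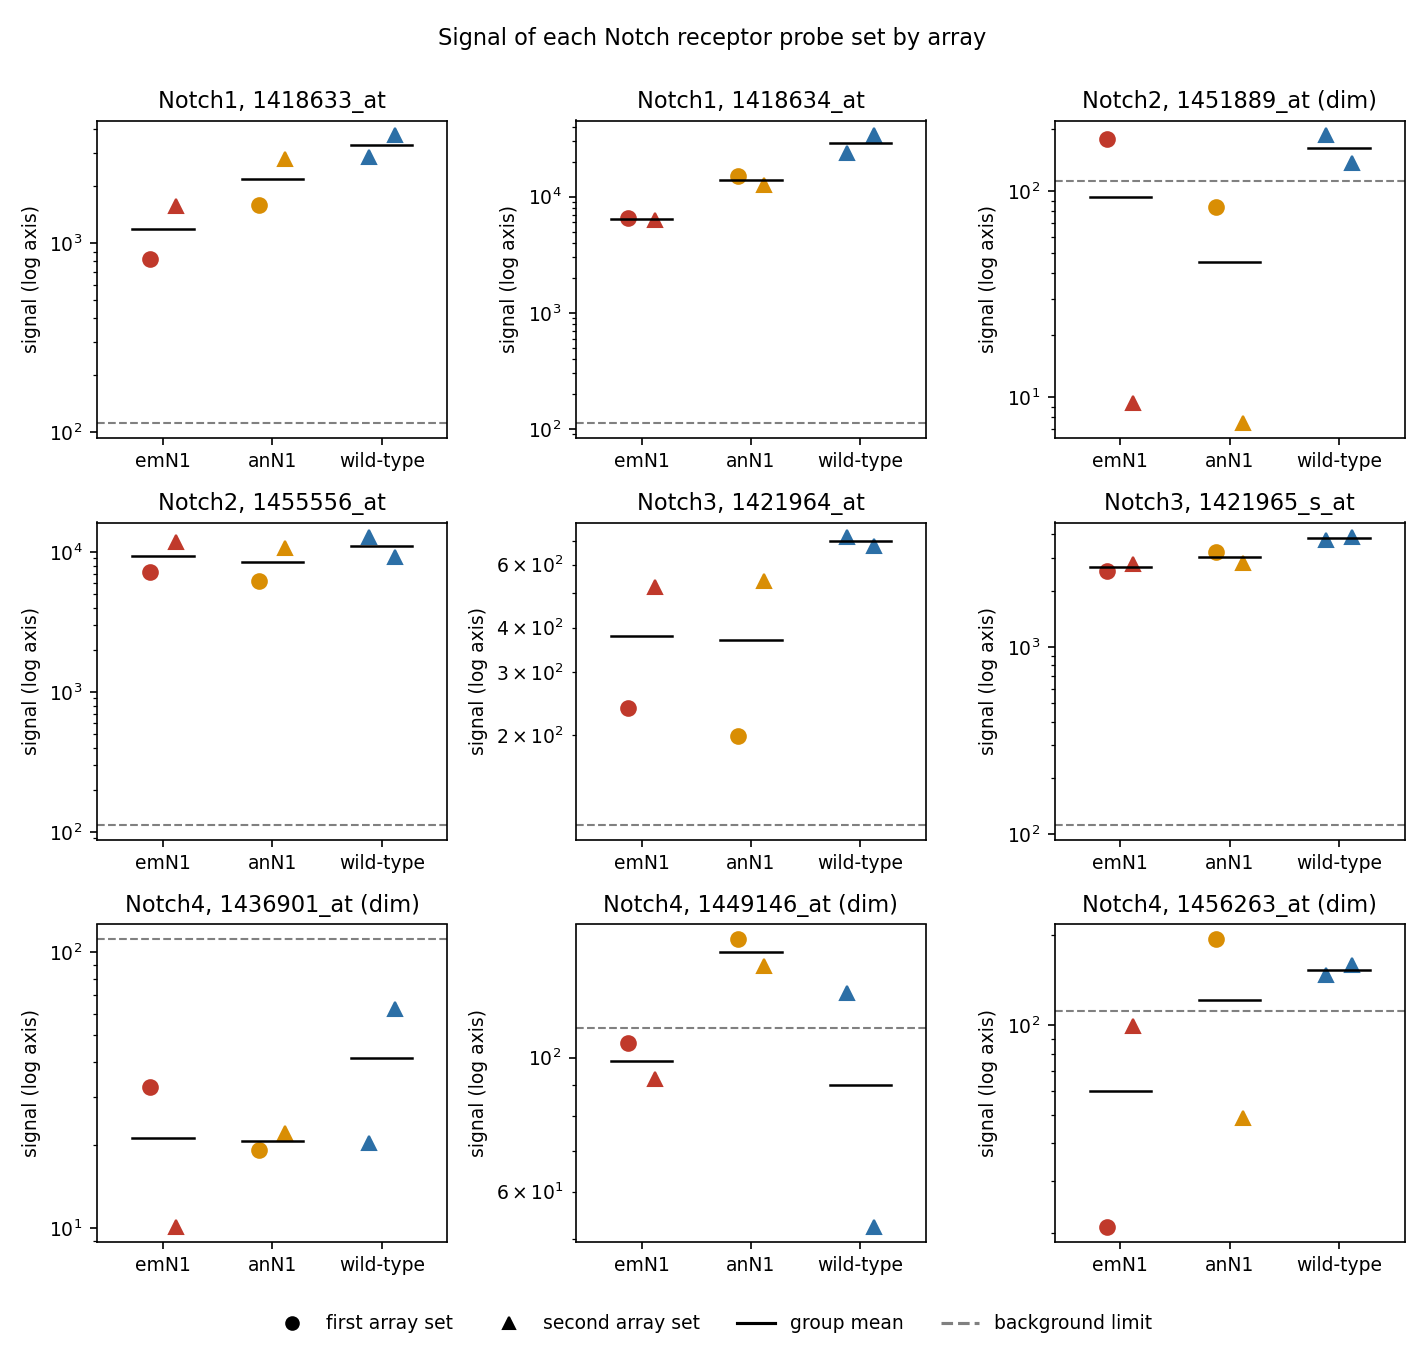
Signal of each of the 9 Notch receptor probe sets on a logarithmic axis, by group from emN1 through anN1 to wild-type. Circles are the first array set, triangles the second, short lines group means and the dashed line the background limit of 112. Both Notch1 probe sets are lowest in emN1 and highest in wild-type, and the Notch4 probe sets lie around or under the background limit.

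The promoters of the receptors differed in composition. Windows from 250 bases before to 50 bases after the gene start, taken from RefSeq on GRCm38.p6, held 23 CpG dinucleotides for Notch1, 41 for Notch2, 25 for Notch3 and 5 for Notch4, where the median over 32851 promoters was 7. Those of Notch1 and Notch4 are shown because Notch1 is the receptor that fell in emN1 and Notch4 the receptor with no probe set bright enough to be tested. Capitals mark GGGCGG, the GC box of Sp1 family factors, and TGACTCA, the AP-1 motif, searched on both strands (the other strand reads CCGCCC and TGAGTCA).
Notch1, GRCm38.p6 chr2:26503773-26504072, minus strand: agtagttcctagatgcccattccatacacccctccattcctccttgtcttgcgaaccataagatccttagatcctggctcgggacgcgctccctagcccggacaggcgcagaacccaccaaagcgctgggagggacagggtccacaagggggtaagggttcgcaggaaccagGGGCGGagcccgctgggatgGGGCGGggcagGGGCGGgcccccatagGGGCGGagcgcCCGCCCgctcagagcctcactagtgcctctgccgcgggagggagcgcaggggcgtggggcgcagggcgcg
Notch4, GRCm38.p6 chr17:34564045-34564344, plus strand: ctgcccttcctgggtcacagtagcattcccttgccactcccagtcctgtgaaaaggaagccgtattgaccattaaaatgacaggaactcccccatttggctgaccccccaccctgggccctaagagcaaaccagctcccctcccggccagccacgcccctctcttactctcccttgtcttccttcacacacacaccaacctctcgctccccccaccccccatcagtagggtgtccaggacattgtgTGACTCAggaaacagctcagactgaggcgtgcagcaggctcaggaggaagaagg
The GC box occurred 5 times in the Notch1 window, 7 times in that of Notch2, 4 times in that of Notch3 and 0 times in that of Notch4, and was present in 35.7% of all promoters. The AP-1 motif occurred once, in the Notch4 window, and was present in 5.20% of all promoters. The letters TGGGAA, the core that RBPJ recognises (TTCCCA on the other strand), occurred in 0 of the 4 windows and in 25.6% of all promoters. No marked motif overlapped another.

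Notch1, the receptor deleted in this study, was lower in emN1 than in the controls by both of its probe sets. The brighter one, 1418634_at, gave 6498 and 6292 in emN1, against 15077 and 12527 in anN1 and 23750 and 34070 in wild-type. Its dimmer counterpart, 1418633_at, gave 821 and 1561 in emN1, against 1581 and 2789 in anN1 and 2833 and 3720 in wild-type. Both put the groups in the same order without overlap, emN1 below anN1 below wild-type, although by the dimmer probe set the margins were narrow, with emN1 replicate 2 just below anN1 replicate 1 and anN1 replicate 2 just below wild-type replicate 1. Signal remained in emN1. As a share of the mean wild-type signal of the second array set, emN1 replicate 2 kept 21.8% by the brighter and 47.7% by the dimmer probe set. As a share of anN1 in the same array set, emN1 kept 43.1% and 50.2% by the brighter probe set and 51.9% and 56.0% by the dimmer one. In whole bulbs, fewer cells that express a gene and less RNA per cell cannot be told apart. The annotation gives both probe sets the same target transcript and does not say where on the transcript each lies, so that neither can be placed inside or outside the deleted part, and a probe set outside it would check nothing about the labels.

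In limma with array set as a term, 2 of the 5 tested receptor probe sets were lower in emN1 than in the 4 control arrays, none was higher and 3 did not pass at a Benjamini-Hochberg adjusted p of 0.05. Across all 27022 probe sets tested, 1.37% passed as lower and 2.41% as higher. The 2 were those of Notch1. The brighter fell by 1.55 on the log2(signal + 17.8) scale (SE 0.35; limma adjusted p = 0.0491) and the dimmer by 0.96 (SE 0.17; limma adjusted p = 0.0211). This fit takes anN1 and wild-type as 1 group, so a difference between them counts as spread. For the brighter probe set they differed by -1.13 (SE 0.20). With the control kinds kept apart, its SE was 0.18 against anN1 and 0.20 against wild-type. With either emN1 array left out, neither probe set passed (limma adjusted p = 0.212 and 0.423 for the brighter, 0.141 and 0.221 for the dimmer). The same held with anN1 replicate 1 left out (limma adjusted p = 0.207 and 0.146), and the brighter one also failed when wild-type replicate 1 was left out (0.0996). An exact permutation test of 2 arrays against 4 was run without array set, with the smaller one-sided p doubled. In that form the permutation test cannot go below p = 0.133. Both Notch1 probe sets reached this value, as did Notch3 1421965_s_at, which limma did not call.

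**Figure D2:**
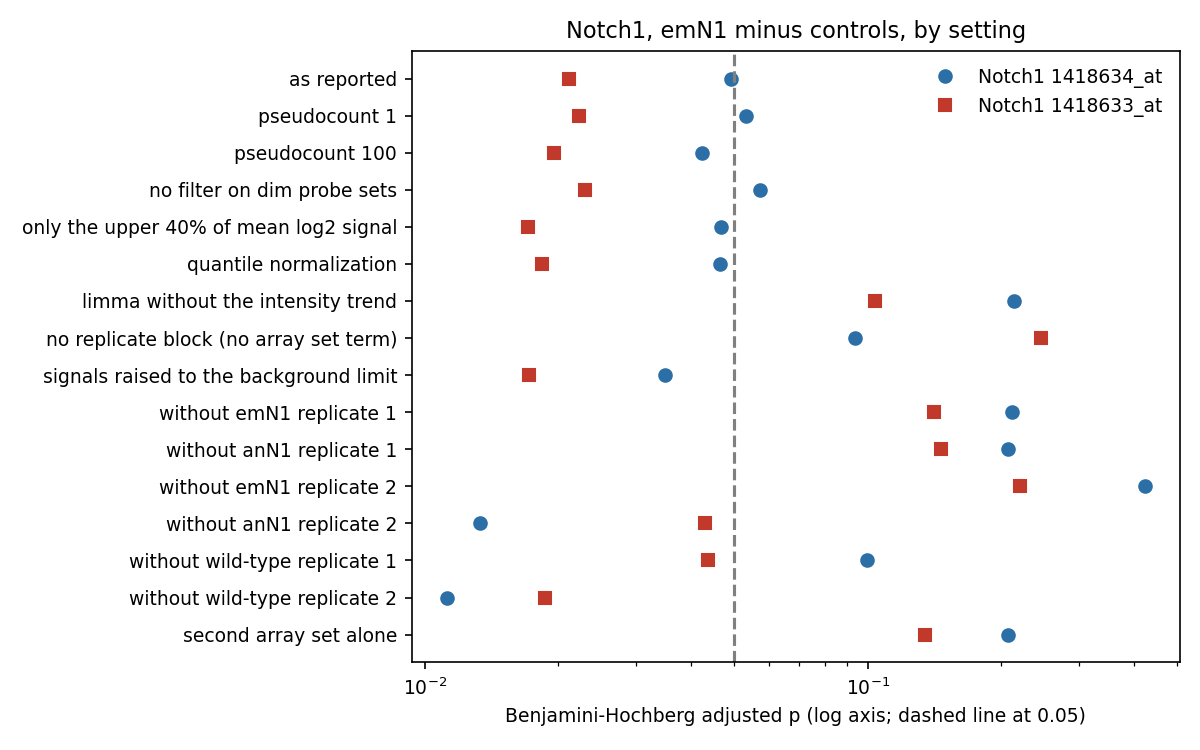
Benjamini-Hochberg adjusted p of both Notch1 probe sets for emN1 minus controls, on a logarithmic axis, as reported and under 15 alternatives. Points left of the dashed line at 0.05 passed. Both probe sets lie right of it without emN1 replicate 1, emN1 replicate 2 or anN1 replicate 1. They do so too without the intensity trend, without the array set term and in the second array set alone.

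**Figure D3:**
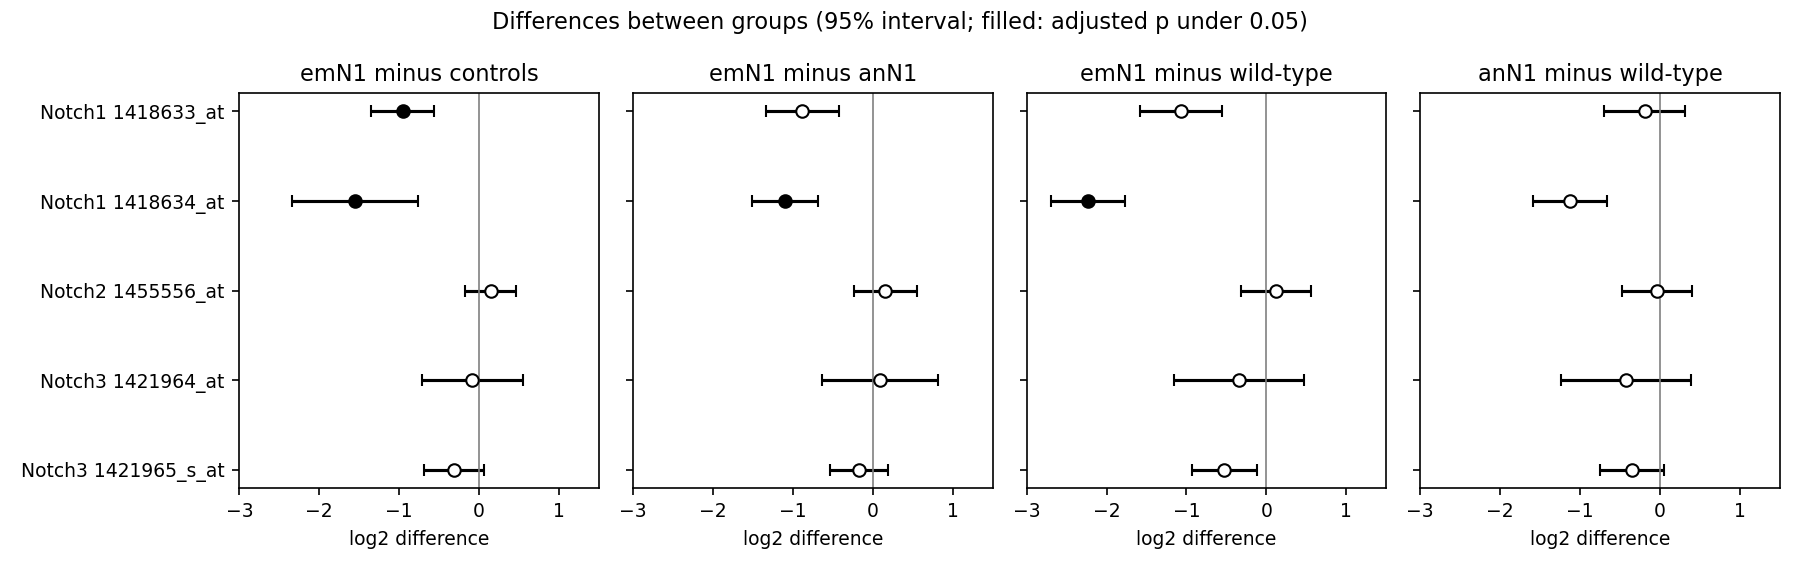
Log2 difference of the 5 tested receptor probe sets in the 4 comparisons, with 95% intervals from limma. Filled points passed an adjusted p of 0.05, which were both Notch1 probe sets against the controls and the brighter one against anN1 and against wild-type.

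The controls of the 2 kinds were also set against emN1 one at a time, in a fit with 3 groups. These comparisons share arrays, so their values stand side by side and do not add to each other. Against anN1, 1 of the 5 receptor probe sets passed as lower in emN1, where 0.662% of all probe sets did. This was the brighter Notch1 probe set, which fell by 1.10 (SE 0.18; limma adjusted p = 0.0282), while the dimmer one differed by -0.88 (SE 0.20; limma adjusted p = 0.0846). In the 4 emN1 and anN1 arrays alone, paired by array set, both passed, at limma adjusted p values of 7.09e-05 for the brighter and 0.0215 for the dimmer. That fit has fewer residual degrees of freedom and rests in large part on the spread shared across probe sets. It called 1261 probe sets in all, against 545 in the 3-group fit. In the 3-group fit the brighter probe set lost its call without any one of the 4 emN1 and anN1 arrays (limma adjusted p from 0.284 to 0.571).

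Against wild-type, 1 of the 5 receptor probe sets passed as lower in emN1, where 0.629% of all probe sets did. The brighter Notch1 probe set fell by 2.23 (SE 0.20; limma adjusted p = 0.00344), and the dimmer one differed by -1.07 (SE 0.22; limma adjusted p = 0.0620). Without any one of the emN1 or anN1 arrays the brighter probe set did not pass (limma adjusted p from 0.0936 to 0.381). Without wild-type replicate 1 the dimmer one passed as well (limma adjusted p = 0.00840).

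Between the controls, the anN1 bulbs, labelled as having functional Notch1, had less Notch1 signal than wild-type bulbs by both probe sets. In the second array set the anN1 array had 43.3% of the wild-type mean by the brighter and 85.1% by the dimmer probe set. The brighter one differed by -1.13 (SE 0.20; 95% interval -1.59 to -0.67), and the dimmer by -0.19 (SE 0.22; 95% interval -0.71 to 0.32). Neither passed limma (adjusted p = 0.289 and 0.999), and 0 of the 5 receptor probe sets did, where 0.074% of all probe sets passed in either direction (at an unadjusted p under 0.05 it was 1 of the 5, the brighter Notch1 probe set at 6.20e-04, and 3.64% of all). Without wild-type replicate 1 the brighter probe set passed (limma adjusted p = 2.90e-04), and over its alternatives its adjusted p ran from 2.90e-04 to 1.00. The order of Notch1, emN1 below anN1 below wild-type with no overlap, was shown by 3 of the 5 receptor probe sets and by 1.88% of all 27022. These 3 were both Notch1 probe sets, from which the order was taken, and Notch3 1421965_s_at. The count leaves out array set, and nothing about the receptors as a family is read from it.

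The sizes of the Notch1 decrease differed between its 2 probe sets, most against wild-type, although no difference passed the adjusted threshold. The signal of the brighter over that of the dimmer was 7.91 and 4.03 in emN1, against 9.53 and 4.49 in anN1 and 8.38 and 9.16 in wild-type. It was thus low in the emN1 and anN1 arrays of the second set alone. For each of 10154 probe sets the difference from the brightest probe set of the same gene was fitted in the same way. The log2 difference of the dimmer Notch1 probe set minus that of the brighter was 0.60 against the controls (SE 0.29; 95% interval -0.05 to 1.24), 0.22 against anN1 (SE 0.21) and 1.16 against wild-type (SE 0.23; 95% interval 0.63 to 1.69). None passed limma (adjusted p = 0.661, 0.910 and 0.523), and 0.0% of all 10154 pairs passed against the controls (801, or 7.89%, had an unadjusted p under 0.05). Against wild-type the unadjusted limma p was 8.11e-04, where 5.22% of all pairs had one under 0.05. Between anN1 and wild-type the difference was 0.93 (SE 0.23; limma unadjusted p = 0.00317), where 2.51% of all pairs were under 0.05.

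The receptor probe sets also differed between array sets. The dimmer Notch1 probe set was 1.90-fold higher in the second than in the first set in emN1 and 1.76-fold in anN1, whereas the second-set signal of the brighter one was 0.968 times that of the first in emN1 and 0.831 times in anN1. Both groups were at least 1.5-fold higher in the second set for 3 of the 5 tested receptor probe sets, against 8.88% of all probe sets, and the other 2 of the 3 were Notch2 1455556_at and Notch3 1421964_at. Beside this, the ratio of the 3' to the 5' control probe set of beta-actin, a measure of how far the labelled RNA reaches from its 3' end, stood at 4.59 for emN1 and 5.64 for anN1 on the arrays of the first set. On those of the second it stood at 2.39 for emN1 and for anN1, against 2.71 and 2.66 for wild-type. The same ratio for Gapdh was 4.79 and 4.90 in emN1, 6.96 and 4.64 in anN1, and 5.45 and 5.03 in wild-type by replicate. For the transferrin receptor it was 1.07 and 1.17 in emN1, against 2.24 and 1.497 in anN1 and 1.53 and 1.65 in wild-type. In emN1 the first-set array thus had the higher ratio by actin but not by Gapdh or the transferrin receptor, whereas in anN1 it had the higher ratio by all 3. The part of these ratios in the receptor signals was not tested.

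Notch2, a receptor of the same architecture that is also expressed in the follicle, was measured well above background by 1455556_at. It gave 7159 and 11731 in emN1, against 6262 and 10768 in anN1 and 12835 and 9218 in wild-type. Values of all groups overlapped, and the spread inside each group was as wide as the distance between groups. Its log2 difference from the controls was 0.15 (SE 0.14; 95% interval -0.18 to 0.47), from anN1 0.16 (SE 0.17) and from wild-type 0.13 (SE 0.19). None passed limma (adjusted p = 0.691, 0.765 and 0.850). Within each array set emN1 was slightly above anN1, at 1.14-fold in the first and 1.09-fold in the second. The interval against the controls leaves room for a rise or a fall of modest size, and the signs against the controls and against wild-type turned without the array set term (-0.044 and -0.25).

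The other Notch2 probe set, 1451889_at, gave 179 and 9.42 in emN1, 83.8 and 7.49 in anN1, and 188 and 137.6 in wild-type. It was over the background limit on 1 emN1 array, 0 anN1 arrays and both wild-type arrays, and the replicates of emN1 and of anN1 lay far apart. Among all 45037 probe sets without the filter it did not pass limma against the controls (log2 -0.68, SE 0.97; adjusted p = 0.851). Its difference was -2.50 between emN1 and wild-type (SE 0.72; limma unadjusted p = 0.00894, adjusted p = 0.240) and -3.03 between anN1 and wild-type (SE 0.72; limma unadjusted p = 0.00321, adjusted p = 0.978).

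Notch3, the receptor of pericytes and smooth muscle that is also present in hair epithelium, was lower in emN1 than in every control by its brighter probe set, by a small margin. The brighter, 1421965_s_at, gave 2564 and 2791 in emN1, against 3241 and 2826 in anN1 and 3740 and 3883 in wild-type. An ending of _s_at marks a probe set whose probes may match more than 1 transcript. It differed by -0.32 from the controls (SE 0.16; 95% interval -0.69 to 0.06), by -0.18 from anN1 (SE 0.15) and by -0.53 from wild-type (SE 0.17). None passed limma (adjusted p = 0.390, 0.709 and 0.233). Both emN1 arrays lay under all 4 controls for 3 of the 5 tested receptor probe sets, those of Notch1 and this one, and for 9.33% of all probe sets. The anN1 arrays lay under both wild-type arrays as well (log2 difference -0.35, SE 0.17; limma adjusted p = 0.999), as they did for 4 of the 5 receptor probe sets and 16.2% of all. Such counts leave out array set, and wild-type arrays were in the second set alone. Of these 4, the dimmer Notch1 and Notch3 probe sets were among those higher in the second set.

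The dimmer Notch3 probe set, 1421964_at, gave 237 and 519 in emN1, against 199 and 542 in anN1 and 718 and 677 in wild-type. Here emN1 and anN1 overlapped, and both lay below wild-type. Its log2 difference was -0.08 from the controls (SE 0.28), 0.09 from anN1 (SE 0.31) and -0.34 from wild-type (SE 0.35), and none passed limma (adjusted p = 0.930, 0.948 and 0.771). The 2 Notch3 probe sets did not differ from each other past the threshold in emN1 against the controls (log2 0.23, SE 0.30; limma adjusted p = 0.877).

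Notch4, the receptor known from endothelium, gave dim signals that stood over the background limit on at most 3 of 6 arrays for any 1 probe set. Probe set 1436901_at gave 32.5 and 10.1 in emN1, 19.3 and 22.2 in anN1, and 20.5 and 62.2 in wild-type, all under the limit of 112. Probe set 1449146_at gave 105.7 and 92.1 in emN1, 157 and 142 in anN1, and 128 and 52.4 in wild-type, with 3 of 6 over the limit. Probe set 1456263_at gave 20.9 and 98.8 in emN1, 195 and 48.6 in anN1, and 147 and 159 in wild-type, again with 3 of 6 over it. Both emN1 arrays were under the limit in all 3 Notch4 probe sets, the nearest at 105.7 against 112. Each of the 4 control arrays was over it in at least 1 and under it in at least 1 other. How often other dim probe sets fell this way was not counted, so no difference between groups is read from it. None of the 3 passed limma without the filter against the controls (adjusted p = 0.892, 0.912 and 0.634). No fold is given for Notch4, since many of its signals are under the limit.

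Markers of cell types that could carry the receptors were set beside these values. Over all 12611 genes tested in emN1 against the controls, 451 rose and 231 fell. Of 8 endothelial genes 4 had a probe set with 1 symbol that passed the filter, and Pecam1, Cdh5, Tie1 and Emcn had none. The summed signal of those 4 was 881 and 955 in emN1, against 853 and 1267 in anN1 and 773 and 1182 in wild-type, and none of the 4 passed. Of 6 measured pericyte and smooth muscle genes 4 rose in emN1, none fell and 2 did not pass (limma, adjusted over all probe sets), namely Acta2 (log2 0.95) and Tagln (1.69) of contractile cells, Cspg4 (1.57) of pericytes and the receptor gene Pdgfrb (1.32). Myh11 and Des had no such probe set. The summed signal of the 6 measured genes was 43298 and 44176 in emN1, 23967 and 20026 in anN1, and 17542 and 17088 in wild-type, with the highest sums in emN1. Of 7 hair matrix and keratinocyte genes, 2 rose, the basal keratins Krt5 (log2 0.65; limma adjusted p = 0.00576) and Krt14 (log2 1.15; limma adjusted p = 0.00247), and 5 did not pass, among them the matrix gene Lef1 (log2 -0.48; limma adjusted p = 0.119). Their summed signal was 81247 and 94266 in emN1, 68156 and 67538 in anN1, and 74749 and 72664 in wild-type, of which Krt5 alone gave 37167 and 44856 in emN1. Of fibroblast markers 4 of 7 rose in emN1 and of immune markers 2 of 5, and the rest did not pass. Of melanocyte markers 6 of 7 fell and 1 did not pass. The summed signals of these 3 lists were 113596 and 95325, 4680 and 4454, and 111431 and 93171 in emN1. In the 4 control arrays those sums ran from 61017 to 81081, from 1075 to 1290, and from 206263 to 299053. Of inner root sheath genes 0 of 5 passed. Of shaft genes 1 of 4 passed, Krt86, as higher in emN1, with wild-type signals of 103 and 32.7 under the background limit. Against wild-type alone 3 of 4 shaft genes rose in emN1, where 297 of all 12611 genes did. Between anN1 and wild-type 1 of 4 was higher, where 13 of all 12611 were. This was Krt31 (log2 2.21; limma adjusted p = 0.00126), at 57068 and 46990 in anN1 against 10755 and 9626 in wild-type. Krt85 had no such probe set. For genes left out in this way, a dim probe set and the lack of a probe set with 1 symbol were not told apart. Without emN1 replicate 2 none of Acta2, Tagln, Cspg4, Pdgfrb, Krt5 and Krt14 passed limma (adjusted p from 0.0980 to 0.176). Without emN1 replicate 1 (adjusted p = 0.139 and 0.0575) or anN1 replicate 1 (0.122 and 0.0543), Pdgfrb and Krt5 did not pass limma. The part of these cell types in the receptor values was not tested.

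The array also carries control probe sets for cre of phage P1, the recombinase gene used to delete genes flanked by loxP sites. The 3' probe set AFFX-CreX-3_at gave 434 and 409 in emN1, 395 and 515 in anN1, but 62.4 and 79.0 in wild-type. A second 3' probe set, AFFX-r2-P1-cre-3_at, gave 428 and 349 in emN1, 353 and 612 in anN1, but 29.2 and 4.29 in wild-type. Both were over the background limit in all emN1 and anN1 arrays and under it in both wild-type arrays. The bacterial bioB, bioC and bioD controls are supplied by the manufacturer in the same mixture as cre. They were among the probe sets whose values set the limit, so that set lies almost wholly under it by construction. The origin of the cre signal was not tested. By both 3' cre probe sets emN1 and anN1 did not separate from each other, unlike by Notch1. The 5' cre probe sets were dimmer, and AFFX-CreX-5_at was under the limit on all 6 arrays.

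**Figure D4:**
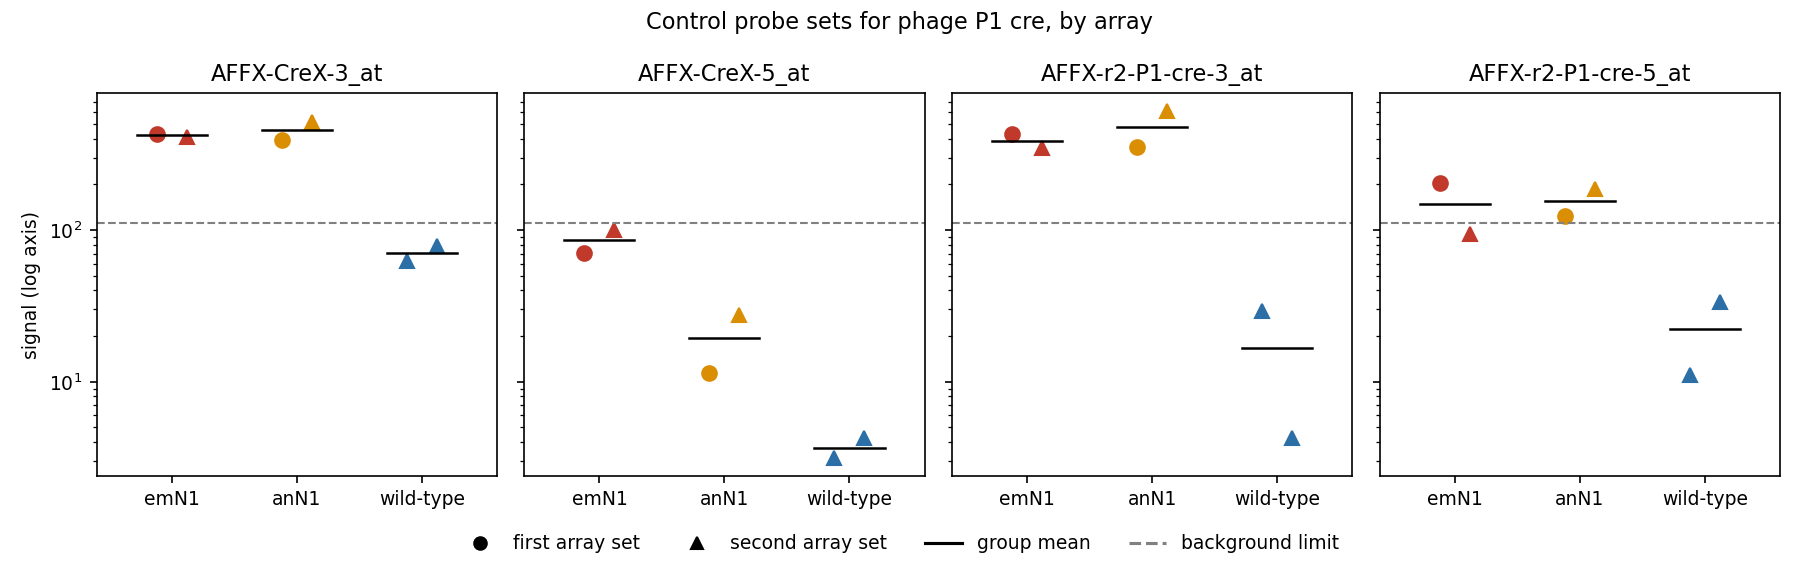
Signal of the 4 control probe sets for phage P1 cre on a logarithmic axis, by group from emN1 through anN1 to wild-type. Circles are the first array set, triangles the second, short lines group means and the dashed line the background limit of 112. In both 3' probe sets the emN1 and anN1 arrays lie between 348.9 and 612 and the wild-type arrays at or below 79.0.

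The rest of the pathway was read from a list of 49 ligands, glycosyltransferases, proteases, turnover factors, nuclear partners and targets, 41 of which were measured. Against the controls, emN1 had 3 genes that fell, 0 that rose and 38 past no threshold in limma, with a median log2 difference of -0.07, against -0.02 over all 12611 genes tested, of which 451 rose and 231 fell. All 3 were among the 8 measured target genes, whose median was -0.60. Nrarp, which encodes a feedback inhibitor that binds the Notch intracellular domain, gave 11179 and 13518 in emN1, against 19813 and 20444 in anN1 and 24710 and 26298 in wild-type, and fell by 0.81 (SE 0.12; limma adjusted p = 0.00918). Heyl, a repressor induced by Notch, gave 2142 and 2648 in emN1, against 3882 and 3718 in anN1 and 5479 and 5834 in wild-type (log2 -0.87, SE 0.19; limma adjusted p = 0.0472). Both followed the order of Notch1. Ccnd1, the cyclin of the G1 phase, gave 5848 and 4287 in emN1, against 10218 and 9838 in anN1 and 8269 and 9787 in wild-type, with no order between the controls (log2 -0.99, SE 0.13; limma adjusted p = 0.00579).

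Against anN1 alone 2 of the 41 fell (Nrarp and Ccnd1), 0 rose and 39 did not pass, while 113 of all 12611 genes fell and 266 rose. Against wild-type alone 4 fell, Nrarp, Heyl, Ccnd1 and the ligand gene Jag1, 0 rose and 37 did not pass, while 110 of all 12611 genes fell and 297 rose. Jag1 gave 15996 and 16405 in emN1, against 13823 and 15195 in anN1 and 30143 and 26840 in wild-type. It was low in emN1 and anN1 alike, a different order from that of Notch1, and fell by 0.77 against wild-type (SE 0.12; limma adjusted p = 0.0248). Between anN1 and wild-type 0 of the 41 passed limma (4 at an unadjusted p under 0.05), while 3 of all 12611 genes fell and 13 rose (600 at an unadjusted p under 0.05). Without emN1 replicate 2, limma called none of Nrarp, Heyl and Ccnd1 against the controls (adjusted p = 0.156, 0.318 and 0.143), and without emN1 replicate 1 or anN1 replicate 1 only Ccnd1 of the 3 passed. Heyl also did not pass without wild-type replicate 1 (limma adjusted p = 0.0979). None of the pathway calls against anN1 alone or wild-type alone passed without any one of the emN1 or anN1 arrays (limma adjusted p from 0.114 to 0.561).

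Genes whose profile was most like a receptor were sought among the probe sets of other genes that passed the filter, by the root mean square difference between log2 profiles centred over the 6 arrays. For the brighter Notch1 probe set, with a root mean square of 0.894 around its own mean, the 5 nearest of 22763 were Pcdh8 (0.142), Mamdc2 (0.221), Mybpc1 (0.245), the Nrarp probe set 1417986_at (0.275) and Ccdc93 (0.291). This is a second Nrarp probe set, which gave 1155 and 1370 in emN1, against 2602 and 2745 in anN1 and 3996 and 4244 in wild-type. Both emN1 signals of Pcdh8 (75.8 and 80.5) and of Ccdc93 (58.5 and 41.7) were under the background limit. Nearest to Notch2 1455556_at were Srek1 (0.0547), Pura (0.0604) and the homeobox gene Dlx2 (0.0643), whose signals, like its own, were lowest on both arrays of the first set. Nearest to Notch3 1421965_s_at were Kctd6 (0.0280), Adcy1 (0.0551) and Zbtb8a (0.0609). With 6 arrays such nearness is a description of these arrays.

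**Figure D5:**
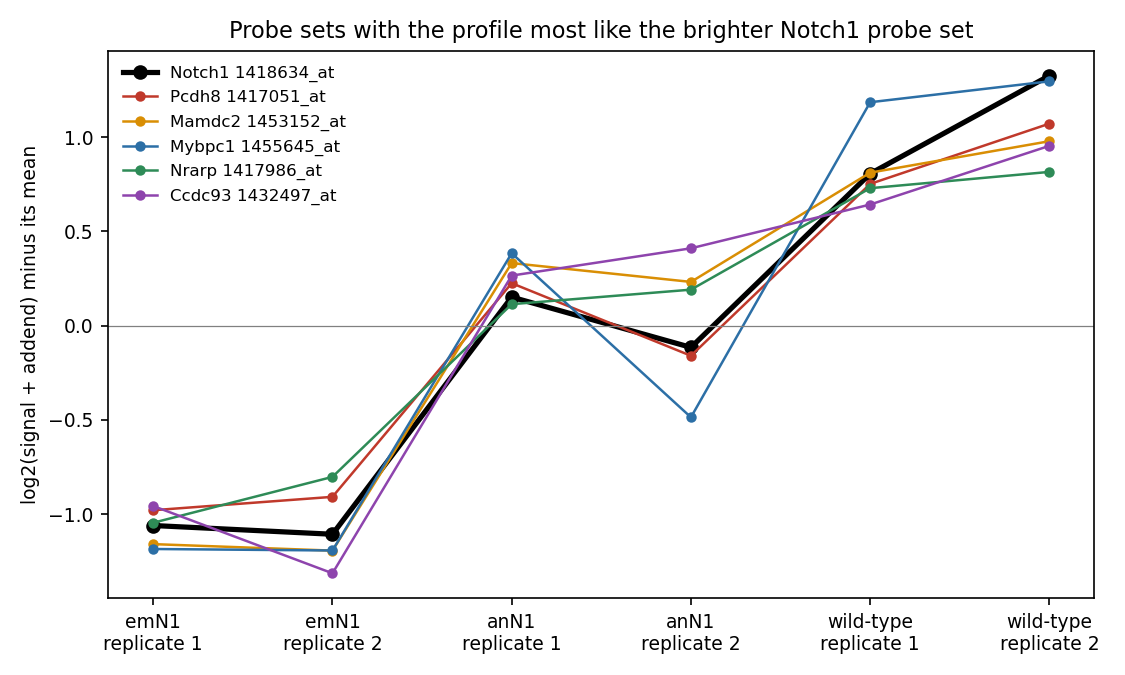
Centred log2 profiles of the brighter Notch1 probe set (thick line) and the 5 probe sets nearest to it, over the 6 arrays from emN1 through anN1 to wild-type. All 6 lie below their mean in both emN1 arrays and above it in both wild-type arrays, with anN1 in between.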

How the data were processed

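Expression was measured in hair bulbs on 6 one-colour arrays, 2 each of emN1, anN1 and wild-type, grouped by sample title. What the authors deposited is 1 linear intensity for each probe set. The submitters' processing notes name MAS5, with settings not given in the sources used here. Their values had a mean near 1500 (1499.5 to 1499.6) between the 2nd and 98th percentiles on each array and medians of 220.0 to 263. No detection calls were used, and the number of arrays limits the precision. The authors' deposited intensities were put on the log2(signal + 17.8) scale, which adds the 10th percentile of the table and understates log2 changes of dim genes.

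Of 45101 probe sets, 64 controls were left out of tests and the upper 60% by mean log2 signal were kept (27022). Platform annotation gave 1 symbol for 34958, several for 932 and none for 9211. Of the single symbols 34754 matched RefSeq by gene identifier (GRCm38.p6, names alone) and 0 changed. Pathway and marker genes were represented by their brightest kept probe set. The background limit came from 120 values of 20 bacterial probe sets, chosen by name and taken as undetected (median 24.4). RefSeq promoters matched for all 4 receptors.

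Groups were compared in R 4.3.3 with limma 3.58.1 (lmFit, then eBayes with trend), with array set as a term. Tests were two-sided, and p-values were adjusted by Benjamini-Hochberg over all kept probe sets. The fit of emN1 against controls had 3 residual degrees of freedom and that of 3 groups had 2 (prior 5.30 and 5.22). Differences between probe sets of 1 gene used the dimmer probe set's mean signal as the trend. Simulated data with known changes were run through the fit of emN1 against controls alone. Their noise was drawn from that fit's own variance estimates, so its assumptions were not tested. Permutations used scipy 1.17.1 and plots matplotlib 3.10.9. The design text places same-numbered emN1 and anN1 replicates in 1 array set, so these are paired. Over 27022 probe sets the replicate 2 minus 1 differences of emN1 and anN1 had r = 0.38, and those with wild-type -0.19 and -0.02.

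Every receptor probe set is named. Pathway genes are named when past the threshold, and nearest profiles are 5 for Notch1 and 3 for Notch2 and Notch3, since no Notch4 probe set was kept. Marker genes are named where they passed in the lists printed in full, and for the shaft list where they passed against the controls or between them. The receptors and lists were chosen with earlier results of these data known. Alternatives were another addend, filter, normalization or variance model, no array set term, raised background, each array left out, the second set alone, and emN1 with anN1 alone.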

Additional observations from a re-analysis of the deposited data

Results flagged for a closer look

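Control probe sets for phage P1 cre, which no comparison of genes used, had signal in emN1 and anN1 above the wild-type level. The lowest of the 4 emN1 and anN1 signals was 394.7 for AFFX-CreX-3_at and 348.9 for AFFX-r2-P1-cre-3_at, while the highest wild-type signals were 79.0 and 29.2. The third of the 4 cre probe sets to pass the limit in part, AFFX-r2-P1-cre-5_at, gave 205 and 93.7 in emN1, 124 and 187 in anN1, but 11.05 and 33.4 in wild-type.

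The difference between emN1 and anN1 in the dimmer Notch3 probe set, 1421964_at, had opposite signs in the 2 array sets. It was 0.24 on the log2 scale in the first set and -0.060 in the second, from 1 emN1 and 1 anN1 array each, and the difference between the sets was not tested. For the brighter Notch3 probe set both sets gave a negative difference (-0.34 and -0.02). Among the controls, 1421964_at gave 199 in anN1 replicate 1, against 542 in anN1 replicate 2 and 718 and 677 in wild-type. That gap was 0.66 of the range of the 4 control signals, the largest such share among the 5 tested receptor probe sets. A Dixon test of gap over range called no control array an outlier for any of the 5. With only 4 signals, which mix anN1 with wild-type and both array sets, the Dixon test cannot show that no array stood apart.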

How the results depend on the processing

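The Notch1 decreases kept their direction against the controls under all 15 alternatives, while their calls did not always hold. For the brighter Notch1 probe set the log2 difference from the controls was -1.56 with an addend of 1, -1.55 with no filter, -1.55 without the intensity trend, -1.63 without the array set term and -1.78 in the second set alone, all past no threshold (limma adjusted p from 0.0532 to 0.214). Leaving out 1 array gave -1.78 to -1.21. The dimmer one kept its call in 9 of 15 and lost it without the trend and without the array set term (limma adjusted p = 0.104 and 0.246), in the second set alone (0.134) and without 3 of the arrays.

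Counts of receptor probe sets past the threshold moved with the settings. Against the controls 2 became 1 with an addend of 1 or with no filter, 0 without the trend, 0 without the array set term and 0 in the second set alone, with 0 to 2 when 1 array was left out. Against anN1 the 1 became 0 without the trend or the array set term and 2 with the replicate block in the emN1 and anN1 arrays alone (0 to 2 with 1 array left out). Against wild-type the 1 became 2 with the stricter filter or quantile normalization and 0 without the trend or in the second set alone (0 to 2 with 1 array left out). Between anN1 and wild-type it ran from 0 to 1 with 1 array left out. Over all probe sets, limma called 1020 against the controls, 0 without the trend, 286 without the array set term, 185 in the second set alone, and 1 (without emN1 replicate 2) to 1092 (without wild-type replicate 2) with 1 array left out. Against anN1 it called 545, 0 without the trend, 42 without the set term, 1261 with the replicate block, and 0 (without any emN1 or anN1 array) to 1269 (without wild-type replicate 1). Against wild-type it called 584, 0 without the trend, 215 without the set term, 26 in the second set alone, and 0 (without emN1 replicate 2) to 1375 (without wild-type replicate 1). Between anN1 and wild-type it called 20, 0 without the trend, 0 in the second set alone, and 0 (without any emN1 or anN1 array) to 173 (without wild-type replicate 1). Pairs of probe sets of 1 gene that differed against the controls numbered 0, and 1 with an addend of 100, 1 with the stricter filter, 2 with quantile normalization, 1 with signals raised to background, and 0 to 4 with 1 array left out. The causes were not tested.

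Signs turned only in results that had not passed the threshold as reported. They were, with 1 array left out, the dimmer Notch1 probe set between anN1 and wild-type (-0.39 to 0.0030), Notch2 against wild-type (-0.11 to 0.36) and between the controls (-0.27 to 0.21), and Notch3 1421964_at against the controls (-0.30 to 0.24) and against anN1 (-0.060 to 0.24). Without the array set term they were Notch2 against the controls (-0.044) and wild-type (-0.25) and the Notch3 pair (-0.088). Of 600 values recomputed for 40 results, 480 kept direction and side of the threshold, 104 lost a call, 7 gained one and 9 changed sign. Of these, 225 values for 15 results on pathway and marker genes were chosen after seeing the data.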
